A study of Gallus gallus with 2 samples.

Results

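Fibroblast growth factors (FGFs) are secreted proteins that bind receptor tyrosine kinases together with heparan sulphate and switch on the Ras, MEK and ERK kinase cascade. The cascade also induces its own inhibitors, among them the Sprouty proteins, which act between the receptor and ERK, and the phosphatase DUSP6, which removes phosphate from ERK, so that transcripts of these genes are widely used as a sign of FGF activity. In the early forebrain FGFs from the rostral rim of the neural plate, from the floor of the hypothalamus and from the border of midbrain and hindbrain guide regional identity, growth and survival. The genes described here are 5 ligands (*FGF3*, *FGF8*, *FGF10*, *FGF18* and *FGF19*), 2 receptors (*FGFR1* and *FGFR3*) and 3 feedback inhibitors (*SPRY1*, *SPRY2* and *DUSP6*). They were found by their symbol in the deposited probe annotation, which gave 32 probes out of 34369 annotated probes. The 10 genes stand beside 18949 genes tested in all, where a probe without a gene symbol counts under its sequence name or probe name.

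RNA came from the prosencephalon of chick embryos that were placed in roller culture at stage HH10 and dissected 16 hours later, near HH13. The embryos were cultured in medium with DMSO, the solvent, or with 40 µM DAPT, which blocks gamma-secretase, the protease that releases the active part of Notch receptors. Each RNA sample was a pool of 5 prosencephalons from the same culture, and was run in 1 colour on an Agilent array of its own, with 4 arrays per condition. The tissue was taken in front of the midbrain and included the future hypothalamus, and its RNA is an average over all cells collected. Arrays 1 and 2 of each condition lay on slide 1 and arrays 3 and 4 on slide 2. Levels are given as the log2 of the background-corrected signal of a probe minus the median log2 signal of its array, so a level of 0 is the array's median, and levels of different probes are not compared with each other.

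As a check of the treatment, *HES5*, a direct Notch target, had levels of 1.98 to 2.61 in DMSO and -5.32 to -2.28 with DAPT (n = 4 and 4 arrays, limma adjusted p = 0.00355), and since its signal was well above background on only 1 of the 4 DAPT arrays no size is given. *HEY1*, another Notch target, had a log2 fold change of -1.52 ± 0.19 (SE, adjusted p = 0.0181). The median signal per array was 177.6 to 353.8 intensity units, and 67.8 to 80.8% of probes were well above background. Of 4 neuronal markers, *NEFM*, a neurofilament subunit, rose with DAPT by 2.22 ± 0.29 on the log2 scale (adjusted p = 0.0190), *TUBB3* was at -0.17 ± 0.17 and did not pass the test, and the summed linear level of the 4 markers was 109.2 to 142.7 times the array median in DMSO and 175.4 to 196.3 times with DAPT. Of the forebrain and optic neuroepithelium markers, *SIX3* had levels of 3.54 to 4.23 in DMSO and 3.28 to 4.16 with DAPT. The log2 fold changes of *SIX3*, *OTX2* and *PAX6* were 0.05 ± 0.24, -0.08 ± 0.30 and 0.15 ± 0.29, none of which passed the test. Of the 6 markers of this list that were tested, 4 lay below 0 and 2 above (median -0.06), and none passed the test. Of 6 isthmus and hindbrain markers only *GBX2* and *PAX2* were tested, with a summed linear level of 5.91 to 9.84 times the array median in DMSO and 8.11 to 14.8 times with DAPT. Neither passed the test between conditions, and which tissue their signal came from was not tested. In such pooled tissue a smaller number of cells of a type and less RNA per cell cannot be told apart, and the part of a change in cell makeup in the values below was not tested.

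None of the probes of the 10 genes passed the test between DAPT and DMSO. Of 32 probes, 29 were tested, with at least 1 for each gene, since in DMSO or in DAPT their signal exceeded background clearly on every array. Of these, 0 had an adjusted p under 0.05 (limma, Benjamini-Hochberg over 31504 probes), where 0.133% of all tested probes did (0.0381% lower and 0.0952% higher), and the lowest adjusted p was 1.0. An unadjusted p under 0.05 was found for 5 of the 29 probes, against 2.28% of all tested probes. The estimates nevertheless lay on 1 side. The log2 fold change was below 0 for 28 of 29 probes and for the brightest probe of 10 of 10 genes, whereas 52.3% of all tested probes and 52.7% of all tested genes were below 0, although *FGF10* lay above 0 with normexp background correction and *FGF19*, *SPRY1* and *SPRY2* with array weights. The *FGF3* probe A_87_P145668 and the *FGFR3* probe A_87_P009347 were tested through DMSO alone, with 3 of 4 DAPT arrays well above background. This favours an estimate below 0, and both enter the probe counts here and below. The median over the 10 genes was -0.22, against -0.01 over all genes. The probes were not independent, since several read the same transcript and all were measured on the same 8 arrays.

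**Figure D1:**
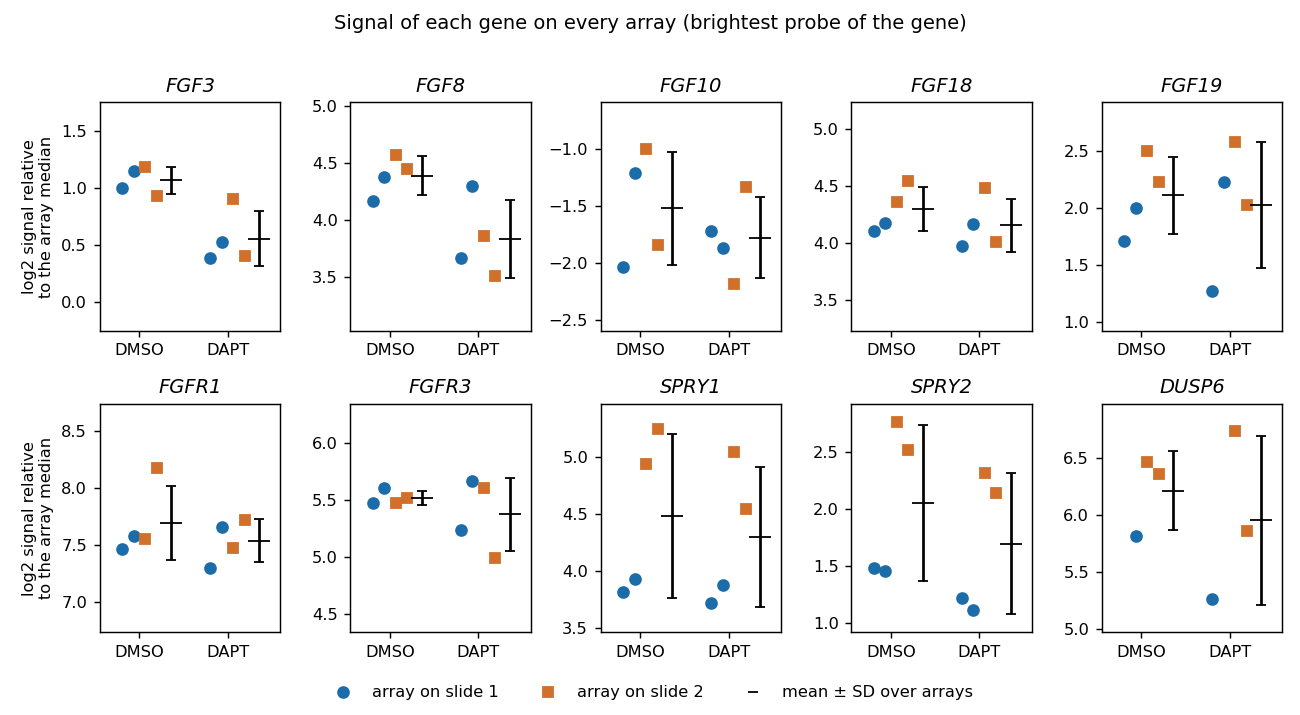
Level of each gene on every array, read from its brightest probe, as log2 signal relative to the array median (y axis, 1 scale per gene) for the 4 DMSO and 4 DAPT arrays. Circles are arrays on slide 1 and squares on slide 2, and bars give the mean and SD. The DMSO and DAPT arrays were apart for FGF3 and overlapped for the other 9 genes, and SPRY1 and SPRY2 separated by slide. DUSP6 has 3 points per condition, because 1 spot in each was an outlier of the image analysis.

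*FGF3* and *FGF8* differed most among the 5 ligands by their brightest probes. *FGF3*, which is made in the hypothalamic floor and the hindbrain and takes part in induction of the inner ear, was read from probe A_87_P008693. In array order, the DMSO levels were 1.0, 1.15, 1.18 and 0.93 and the DAPT levels 0.38, 0.53, 0.90 and 0.41. All 4 DAPT arrays lay below all 4 DMSO arrays, with DAPT array 3 close to DMSO array 4. This separation was seen in 0.966% of all tested genes in the same direction, and in 1.86% in either, and *FGF3* was the only 1 of the 10 genes to show it on its brightest probe. This was a log2 fold change of -0.51 ± 0.18 (SE; 95% interval -0.91 to -0.11), or 1.43-fold lower, with a two-sided exact permutation p of 0.0286, the smallest that 4 against 4 arrays can give, and an adjusted p of 1.0 by limma. The difference was -0.62 within slide 1 and -0.40 within slide 2. A second probe, A_87_P145668, gave -0.48 ± 0.56, with overlapping arrays and with 3 of 4 DAPT arrays well above background. The third, A_87_P131028, was well above background on 2 DMSO and 3 DAPT arrays and was not tested.

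*FGF8*, the ligand of the anterior neural ridge and of the isthmus, was lower on all 3 of its probes. The brightest, A_87_P015200, had levels of 4.16, 4.37, 4.56 and 4.44 in DMSO and 3.66, 4.29, 3.86 and 3.51 with DAPT. DAPT arrays 1, 3 and 4 were below every DMSO array, and DAPT array 2 lay inside the DMSO range. The log2 fold change was -0.55 ± 0.21 (95% interval -1.02 to -0.09), or 1.47-fold lower, with an exact permutation p of 0.0571 and an adjusted p of 1.0. Probe A_87_P009058 had levels of 4.04, 4.32, 4.18 and 4.29 in DMSO and 3.84, 3.83, 3.98 and 3.62 with DAPT, and a log2 fold change of -0.39 ± 0.17. Probe A_87_P059686 had levels of 3.78, 4.08, 3.91 and 3.81 in DMSO and 3.61, 3.58, 3.71 and 3.22 with DAPT, and a log2 fold change of -0.36 ± 0.18. On both of these probes the conditions did not overlap (exact permutation p = 0.0286 each, adjusted p = 1.0 each). With the first *FGF3* probe they made up the 3 of 29 probes with all DAPT arrays below all DMSO arrays, against 0.905% of all tested probes. All 3 *FGF8* probes were lower in each of the 4 comparisons of arrays with the same number. The labels and the paper do not say that same-numbered arrays of the 2 conditions belong together, here and below.

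On their brightest probes the other ligands differed between conditions by less than the SD over the arrays of either condition. *FGF10*, a ligand of the hypothalamic floor that signals mainly through the second FGF receptor, had levels of -2.04, -1.22, -1.0 and -1.85 in DMSO and -1.72, -1.87, -2.19 and -1.34 with DAPT on its tested probe A_87_P091911. The ranges overlapped largely, and the log2 fold change was -0.26 ± 0.28 (95% interval -0.87 to 0.36, exact permutation p = 0.400). The second *FGF10* probe was well above background on 2 DMSO arrays and 1 DAPT array and was not tested. *FGF18*, a ligand closely related to *FGF8*, had levels of 4.11, 4.18, 4.36 and 4.54 in DMSO and 3.97, 4.16, 4.48 and 4.01 with DAPT on A_87_P052861. Its log2 fold change was -0.14 ± 0.19 (95% interval -0.56 to 0.28, exact permutation p = 0.343), and its other probe, well above background on 2 arrays of each condition, was not tested.

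*FGF19*, the chick counterpart of mouse *FGF15*, was measured by 3 probes that gave different sizes. On the brightest, A_87_P037696, the levels were 1.71, 2.0, 2.49 and 2.23 in DMSO and 1.27, 2.23, 2.57 and 2.03 with DAPT, with a log2 fold change of -0.08 ± 0.29 (95% interval -0.73 to 0.56, exact permutation p = 0.857). Arrays 1 were lowest in both conditions, and arrays 3 highest, and without DAPT array 1 the estimate was 0.17, without DMSO array 3 it was 0.046. Probe A_87_P084361 gave -0.36 ± 0.22 and was lower in 4 of 4 comparisons of same-numbered arrays, while A_87_P084366 gave -0.31 ± 0.24 and was lower in 2 of 4. In the RefSeq gene table *FGF19* and *FGF3* are neighbours on the chicken genome, with 2 genes between them, of which 1, *FGF4*, codes for protein. *FGF4* was on the array but too dim to be tested.

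**Figure D2:**
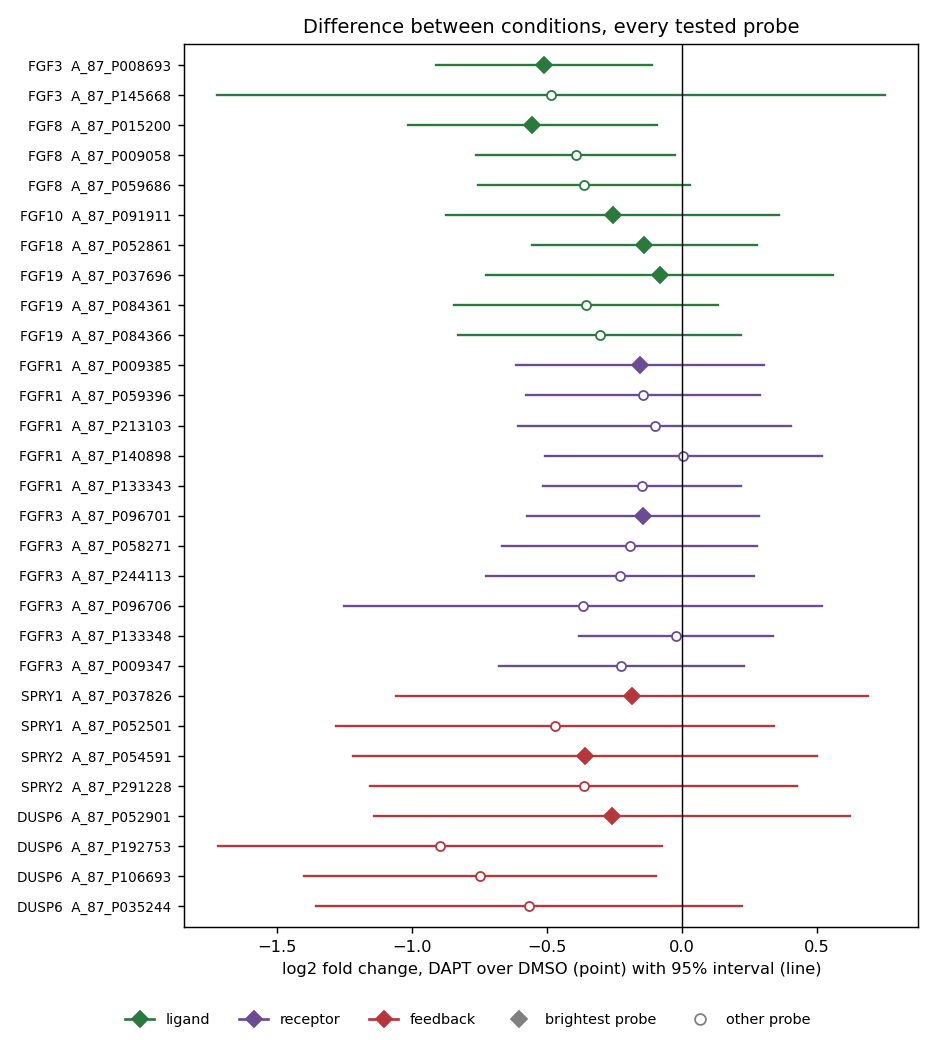
Log2 fold change of DAPT over DMSO (x axis) with its 95% interval from limma for each of the 29 tested probes, coloured by role. Filled diamonds are the brightest probe of each gene. The point lies below 0 for 28 probes in the fit shown, though FGF10 is above 0 with normexp and FGF19, SPRY1 and SPRY2 with array weights, and the interval includes 0 for most of them.

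Both receptors had small estimates on their brightest probes, with intervals that also include falls as large as those estimated for *FGF3* and *FGF8*. *FGFR1*, the main FGF receptor of the neural plate, was read by 5 probes with log2 fold changes from -0.16 to 0.00. The brightest, A_87_P009385, had levels of 7.46, 7.58, 7.55 and 8.18 in DMSO and 7.30, 7.66, 7.47 and 7.72 with DAPT. DMSO array 4 stood above the other 7 arrays, and the remaining arrays overlapped. It differed by -0.16 ± 0.21 on the log2 scale (95% interval -0.61 to 0.30, exact permutation p = 0.543), and 0.01 without DMSO array 4. Probe A_87_P140898 of *FGFR1* was the 1 tested probe of the 29 with an estimate above 0, at 0.0048 on the log2 scale. *FGFR3*, a receptor enriched in neural progenitors, was read by 6 probes with log2 fold changes from -0.37 to -0.02. Its brightest probe, A_87_P096701, had levels of 5.47, 5.61, 5.48 and 5.51 in DMSO and 5.23, 5.67, 5.60 and 4.99 with DAPT. The 4 DMSO arrays lay within a narrow range, with 2 DAPT arrays below it and 1 above it. The difference was -0.14 ± 0.19 on the log2 scale (95% interval -0.57 to 0.29, exact permutation p = 0.429). In the fit without a block, the intervals of the brightest *FGFR1* and *FGFR3* probes leave out a 2-fold fall. So did those of 6 of the 10 genes in all, the others being *FGF3*, *FGF10*, *FGF18* and *FGF19*. This depends on the setting. With normexp, which moved the median of all probes to -0.32, *FGFR1* was at -0.85 ± 0.29 and *FGFR3* at -0.82 ± 0.24, within 1 SE of a 2-fold fall (-1).

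The brightest probes of the feedback inhibitors had wide intervals in the fit without slide, and their levels differed between slides. With slide as a block the SE of the log2 fold change was 0.16 for *SPRY1*, 0.13 for *SPRY2* and 0.24 for *DUSP6*, and none of them passed the test. The exact permutation p-values of these genes also leave out slide. *SPRY1* had levels of 3.81, 3.93, 4.94 and 5.24 in DMSO and 3.72, 3.88, 5.04 and 4.54 with DAPT on A_87_P037826. The arrays of slide 2 were all above those of slide 1, whatever the condition. The log2 fold change was -0.19 ± 0.39 (95% interval -1.06 to 0.69, exact permutation p = 0.657), and the estimate was 0.068 without DMSO array 4 and 0.0072 without DAPT array 1. A second probe gave -0.47 ± 0.36. *SPRY2* had levels of 1.49, 1.46, 2.77 and 2.52 in DMSO and 1.22, 1.12, 2.32 and 2.14 with DAPT on A_87_P054591. Within each slide the DAPT arrays were below the DMSO arrays. Its log2 fold change was -0.36 ± 0.39 over all arrays (95% interval -1.22 to 0.50, exact permutation p = 0.457), -0.31 within slide 1 and -0.41 within slide 2. The differences between same-numbered arrays of *SPRY2* were -0.27, -0.34, -0.45 and -0.38. Its second probe, A_87_P291228, gave -0.37 ± 0.36 and was also lower in 4 of 4 such comparisons.

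*DUSP6* was read by 4 probes whose estimates ran from -0.90 to -0.26. On the brightest, A_87_P052901, the outlier spots of DMSO array 1 and DAPT array 2 were dropped. The remaining levels were 5.81, 6.46 and 6.35 in DMSO arrays 2 to 4 and 5.26, 6.73 and 5.86 in DAPT arrays 1, 3 and 4, with a log2 fold change of -0.26 ± 0.38 (n = 3 and 3 arrays, exact permutation p = 0.700). The highest and the lowest values were both DAPT arrays, and without DAPT array 1 the estimate was 0.085. Probe A_87_P192753 had levels of 0.52, 0.50, 1.66 and 1.86 in DMSO and 0.35, 0.29, -0.43 and 0.74 with DAPT, and a log2 fold change of -0.90 ± 0.37 (exact permutation p = 0.143, adjusted p = 1.0). Probe A_87_P106693 had levels of -0.14, -1.34, -0.11 and -0.19 in DMSO and -1.41, -1.44, -1.02 and -0.90 with DAPT, and a log2 fold change of -0.75 ± 0.29 (exact permutation p = 0.0857, adjusted p = 1.0). DMSO array 2 was the only DMSO array within the DAPT range of that probe. The fourth probe gave -0.57 ± 0.35. The 3 dimmer probes were lower in 4 of 4 comparisons of same-numbered arrays, and 12 of the 28 tested probes with all arrays present were, against 6.94% of all tested probes.

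**Figure D3:**
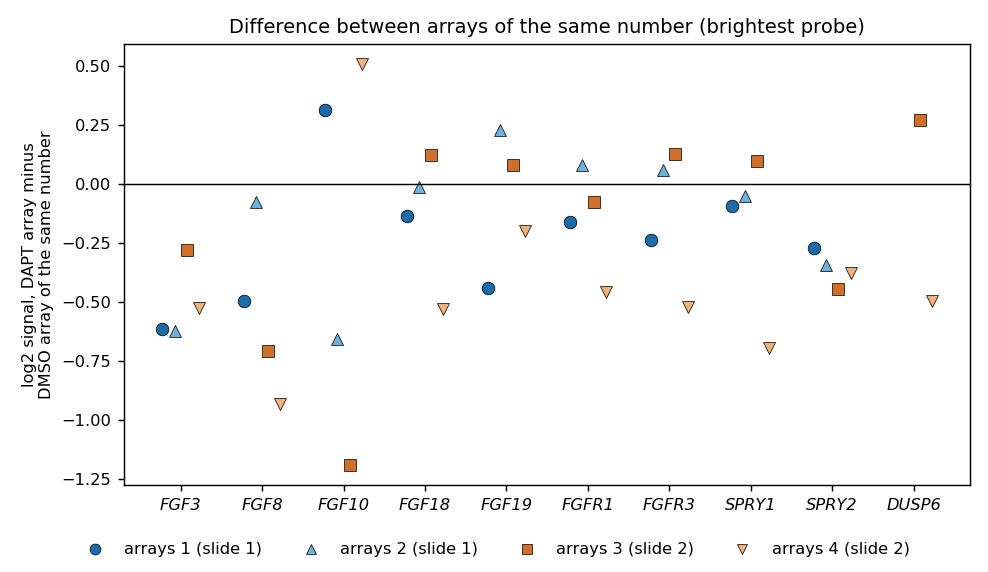
Difference in log2 signal between the DAPT and the DMSO array of the same number (y axis) for the brightest probe of each gene, with 1 symbol per array number. All 4 differences were below 0 for FGF3, FGF8 and SPRY2, and the other genes had differences on both sides of 0. For DUSP6 the 2 differences of slide 2 are shown.

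With slide as a block, 0 of the 29 probes had an adjusted p under 0.05, where 0.444% of all tested probes did, and the lowest adjusted p was 0.413, for the *DUSP6* probe A_87_P106693. With slide as the block, an unadjusted p under 0.05 was found for 11 of the 29 probes, against 5.76% of all tested probes. These were 5 of 10 ligand probes, 0 of 11 receptor probes and 6 of 8 feedback probes. Probes of the same gene are not independent, and by the brightest probe the count was 3 of 10 genes, *FGF3*, *FGF8* and *SPRY2*. The brightest probes of *SPRY1* and *DUSP6* were not among them. Median log2 fold changes were -0.36 for the ligand probes, -0.15 for the receptor probes and -0.42 for the feedback probes, so that genes with more probes weigh more. Whether these roles differ from each other was not tested. With the array number as a block instead, 0 probes had an adjusted p under 0.05, against 0.606% of all tested probes. The estimate was below 0 within both slides for 10 of 10 genes by the brightest probe and for 25 of 29 probes, against 28.7% of all tested genes and 28.3% of all tested probes. For the brightest *DUSP6* probe the slide 1 value of -0.55 rests on 1 array per condition, DMSO array 2 and DAPT array 1.

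The response was then compared between slides by an interaction term. Of 28 probes with enough arrays, 0 had an adjusted p under 0.05, as was the case for 0% of all 31390 probes tested for it, and 1 had an unadjusted p under 0.05, against 2.32% of all probes. This was the *DUSP6* probe A_87_P192753, where the difference was -0.19 within slide 1 and -1.60 within slide 2.

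The difference between the slides themselves was larger for several of these genes than that between conditions. Of the 29 probes, 9 were called higher on slide 2 and 0 lower (limma, adjusted p under 0.05), where 26.5% of all tested probes were called higher and 14.8% lower, so that the share called higher was near that of all probes. Counted by the brightest probe, 3 of the 10 genes were called higher, against 24.9% of all tested genes. These were *SPRY1*, *SPRY2* and *DUSP6*, whose brightest probes were higher on slide 2 by 1.11, 1.12 and 0.82 on the log2 scale, with adjusted p of 5e-04, 2e-04 and 0.0321, against a median shift of 0.18 over all probes. Both probes of *SPRY1* and of *SPRY2* were called. The 3 *FGF8* probes moved by -0.10 to 0.01 and were not called. Probes of the same gene could differ in this. The second *FGF3* probe was 1.56 higher on slide 2 (adjusted p = 0.000797) and the first 0.09, and 1 of 6 *FGFR3* probes, A_87_P096706, was 1.06 higher (adjusted p = 0.0020) while the brightest was at -0.10. The deposited array names give the slides, and what else differed between them was not tested.

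**Figure D4:**
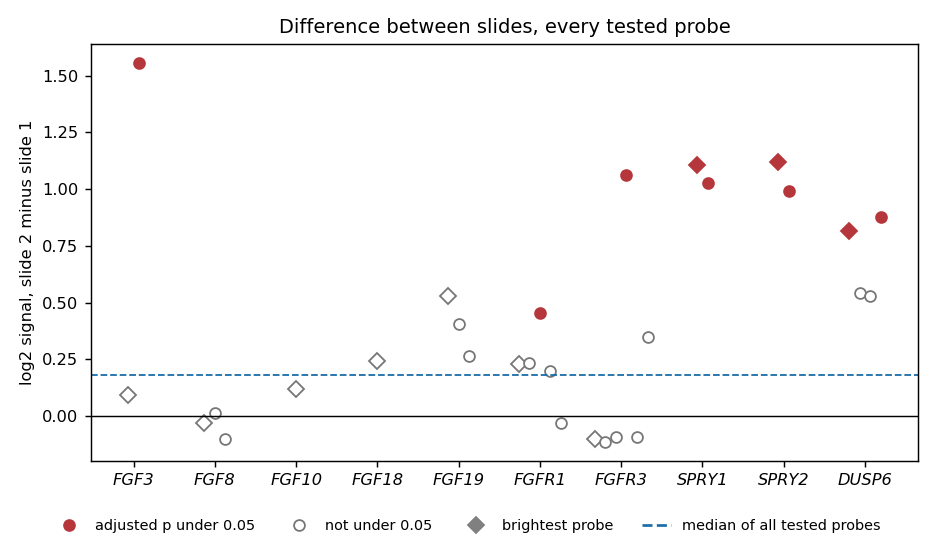
Difference in log2 signal between slide 2 and slide 1 (y axis) for each tested probe, from the fit with condition and slide. Filled red symbols had an adjusted p under 0.05, diamonds are the brightest probe of a gene, and the dashed line is the median of all tested probes at 0.18. All probes of SPRY1 and SPRY2 lie near 1, and those of FGF8 near 0.

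Without a test, a difference of at least 1.3-fold was reached by 2 of the 10 genes, *FGF3* and *FGF8*, both lower, where 4.80% of all tested genes were lower by as much. The count was 5 without DMSO array 1 or DAPT array 3, and 4 without DMSO array 2 or DAPT array 4. It was 9 with normexp, which moved the median of all probes to -0.32. The 4.80% belongs to the reported fit, and the share of all genes in these other settings was not computed, so these counts have no background beside them. None of the 10 was higher by 1.3-fold, against 4.18% of all genes. Counted by probes, 8 of 29 were lower by 1.3-fold, against 4.16% of all tested probes, and they belonged to *FGF3*, *FGF8*, *SPRY1* and *DUSP6*.

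Genes in the rest of the pathway did not pass the test either. Of 109 listed symbols, 75 genes were tested, 9 had probes that were too dim, and 25 matched no probe by name, 1 of which (*KAL1*) is an older name of the tested *ANOS1*. Of the 75, 0 were called higher and 0 lower by limma, with or without slide as a block, where 0.137% and 0.501% of all tested genes were called. In the fit without a block 1 of the 75 had an unadjusted p under 0.05, against 2.28% of all tested probes. Their median log2 fold change was -0.04, with 41 below 0 and 34 above.

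The lists differed in their medians. All 7 other *FGF* genes that were tested lay below 0, where 52.7% of all tested genes did, with a median of -0.13. Among them *FGF16*, a ligand of the *FGF9* family, was lowest at -0.51 ± 0.40, and *FGF7*, a ligand known from mesenchyme, was nearest to 0 at -0.08 ± 0.40. The *FGF16* probe was dim, at 10.8 to 82.1 intensity units, and only 3 of 4 DAPT arrays had it well above background. It was thus tested through DMSO alone, which favours an estimate below 0, and it is counted among the 7. Its levels were -2.47 to -2.11 in DMSO and -4.06 to -1.77 with DAPT, with the lowest value on DAPT array 2 and the highest on DAPT array 3. *FGF9* itself, chosen after its values were seen as the 1 gene with an unadjusted p under 0.05, had a log2 fold change of -0.50 ± 0.20 (exact permutation p = 0.0571, adjusted p = 1.0), with DMSO arrays at 0.93 to 1.48 and DAPT arrays at 0.42 to 0.95. Of 6 other receptors and binding proteins 4 lay below 0 (median -0.09), between *FGFBP2*, listed here by its name as an FGF binding protein, at -0.30 ± 0.25 and *FLRT2*, a membrane protein that binds FGF receptors, at 0.03 ± 0.23.

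Of 10 other feedback inhibitors 7 lay below 0 (median -0.10), from *DUSP7*, an ERK phosphatase related to *DUSP6*, at -0.30 ± 0.29 to *RASA1*, a GTPase-activating protein for Ras, at 0.33 ± 0.29. *SPRY4* was on the array but too dim to be tested. Of 10 transcriptional targets 7 lay below 0 (median -0.15). *EGR1*, an immediate early gene downstream of ERK, was lowest at -0.34 ± 0.22, and *ETV5*, an ETS factor induced by FGFs, was highest at 0.04 ± 0.17, with DMSO arrays at 6.22 to 6.60 and DAPT arrays at 6.32 to 6.66. The other ETS factors of that family, also chosen after their values were seen, were *ETV4* at -0.25 ± 0.20 and *ETV1* at -0.17 ± 0.20.

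The kinases and adaptors of the signal relay and the heparan sulphate genes had medians on the other side of 0. Of 24 relay genes 9 lay below 0 and 15 above (median 0.04), from the adaptor *GRB2* at -0.18 ± 0.37 to the kinase *AKT1* at 0.24 ± 0.25. Of 18 heparan sulphate genes 7 lay below 0 and 11 above (median 0.03), with the sulphotransferases *HS3ST1* at -0.46 ± 0.27 and *HS3ST2* at 0.44 ± 0.20 at the ends. The medians are descriptions of these 8 arrays, and no list was tested against another.

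**Figure D5:**
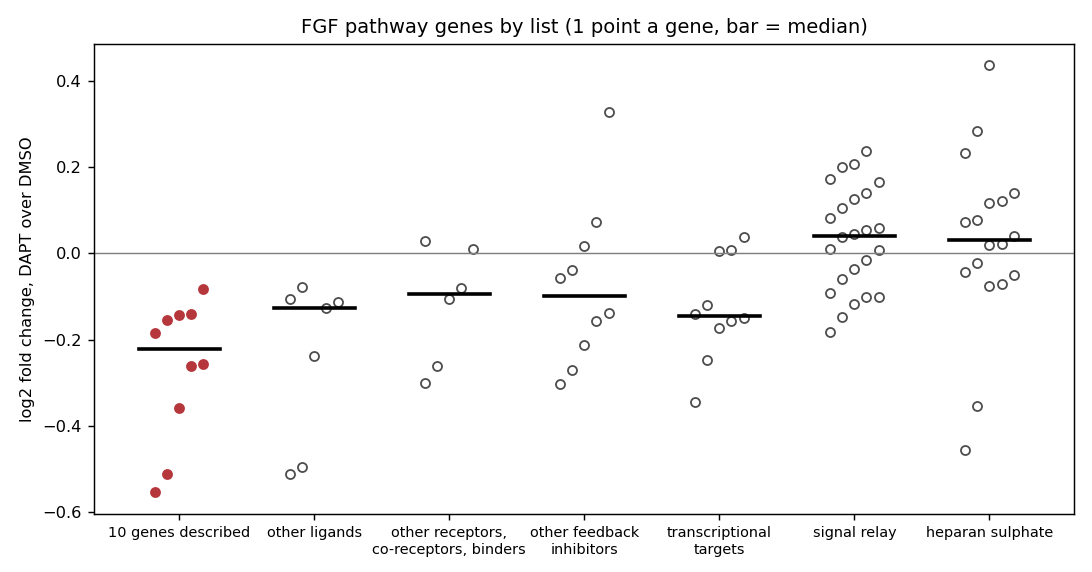
Log2 fold change of DAPT over DMSO (y axis) for the 10 genes described and for 75 other genes of the pathway in 6 lists, 1 point per gene from its brightest probe, with the median of each list as a bar. The medians are -0.22 for the 10 genes, -0.15 to -0.09 for other FGF genes (labelled other ligands), receptors, feedback inhibitors and targets, and 0.03 to 0.04 for the relay and heparan sulphate genes. No point passed the test.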

How the data were processed

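The authors deposited the image analysis output of Agilent Feature Extraction 10.7.1.1 for 8 single-colour arrays, whose processed signals are background-corrected intensity values that had not been scaled from array to array. A deposited report gave mean raw intensity and mean log2 signal per condition and served for annotation only, and its fold change columns and the list of changed genes were not used. 0 per-sample columns were left unused. The labels gave the groups, and the deposited array names the slides and array numbers.

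Levels were computed in R 4.3.3 (packages limma 3.58.1 and jsonlite 2.0.0). Control spots and spots marked as outliers (13 to 44 per array) were left out, saturated spots (311 to 382 per array on slide 1, 0 on slide 2, none of them of the 32 probes) were kept, spots of a probe were averaged, and the 50th percentile of each array's log2 signals was subtracted, as in the paper's methods. A probe was tested where every array of DMSO, or every array of DAPT, had it well above background, and a gene was read from its brightest probe. The test between conditions was that of limma (functions lmFit and eBayes, two-sided, Benjamini-Hochberg adjustment over 31504 probes, threshold 0.05). It was also run on simulated data with independent noise, the outcome of which is not given here. Single probes were tested by exact permutation over the 70 splits of 8 arrays. The paper describes 4 sets of experiments, each pool coming from embryos of a shared culture, and whether the pools of all arrays came from separate cultures is not given in the sources used here, so p-values measure the spread between these arrays, whose number limits the precision.

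For each probe the deviation of an array from the mean of its condition was taken and compared between DMSO and DAPT arrays. Deviations sum to 0 over the arrays of a condition, so with a difference between slides this step itself favours correlations below 0 across slides. Same-numbered arrays of the conditions deviated together, with correlations across probes of 0.505 to 0.767. Differently numbered arrays that shared a slide reached 0.419 to 0.675, and arrays of different slides -0.717 to -0.462. Whether arrays of the same number came from the same experiment is not stated in the labels or the paper, and they also share a slide. The number was used as a block in an alternative fit.

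Named are all 10 genes with every probe and, in each pathway list, any called gene and the genes with the largest rise and fall. The genes and lists were chosen with earlier results of these data known. Alternatives were another percentile, quantile normalization, normexp (offset 50) on median signals, no filter, outlier spots kept, slide or number as a block, each slide alone, array weights, the mean over a gene's probes, and leaving out each array. Gene positions are not given, since the array design predates the assembly of the RefSeq table used for neighbours (GRCg7b). The forebrain marker list is given in part, since an item of it is not reported here. Figures were drawn in Python with matplotlib.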

Additional observations from a re-analysis of the deposited data

Results flagged for a closer look

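Among 56 groups of 4 arrays, 2 held an array far from the other 3, where chance alone marks about 5% of groups. On the brightest *FGFR1* probe DMSO array 4 had a level of 8.18, with the other DMSO arrays at 7.46 to 7.58. On the *DUSP6* probe A_87_P106693 DMSO array 2 had a level of -1.34, with the others at -0.19 to -0.11.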

How the results depend on the processing

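No probe of the 10 genes was called under any other setting with a count of probes (averaging the probes of a gene gives none), and no other pathway gene was called under any. Within each slide alone the test had at most 2 arrays per condition. The adjusted p of the 10 genes ran from 0.144 to 1.0 over the settings that used both slides. With the array number as a replicate block 0 of 29 probes had an adjusted p under 0.05, against 0.606% of all tested probes, the lowest was 0.172, 12 probes had an unadjusted p under 0.05 against 7.84% of all, and the block changed no call. Of 189 log2 fold changes of the 10 genes, 179 kept their direction and 10 turned to the other side of 0; the cause was not tested. With array weights *FGF19* was at 0.015, *SPRY1* at 0.16 and *SPRY2* at 0.0091. With normexp on median signals, which was added after the data had been seen, *FGF10* was at 0.26. That setting moved the median of all probes to -0.32, and 9 of the 10 genes were then lower by 1.3-fold against 2 in the reported fit; relative to that median they lay at -0.90 (*FGF8*) to -0.17 (*FGF3*), and *FGF10* at 0.57. By the 1.3-fold threshold alone 2 genes were called. The share of all genes lower by 1.3-fold was computed for the reported fit alone, not for normexp or with an array left out. Leaving out 1 array each gave 2 to 5 genes lower by 1.3-fold, 5 without DMSO array 1 or DAPT array 3 and 4 without DMSO array 2 or DAPT array 4. The log2 fold changes then ran from -0.27 to 0.17 for *FGF19* (above 0 without DMSO array 3, at 0.046, or DAPT array 1), from -0.23 to 0.0055 for *FGFR1* (above 0 without DMSO array 4), from -0.43 to 0.068 for *SPRY1* (above 0 without DMSO array 4, or DAPT array 1, at 0.0072) and from -0.65 to 0.085 for *DUSP6* (above 0 without DAPT array 1). The others stayed below 0, with *FGF3* from -0.63 to -0.45, *FGF8* from -0.71 to -0.45, *FGF10* from -0.43 to -0.08, *FGF18* from -0.25 to -0.06, *FGFR3* from -0.24 to -0.02 and *SPRY2* from -0.57 to -0.12. Normexp on mean signals was not run, and the mean over probes was left out for *DUSP6*, whose brightest probe lacks 2 arrays. The signal of *FGF10*, 44.4 to 176.8 intensity units on its tested probe, was low against the array medians of 177.6 to 353.8, and 3 of the 32 probes were too dim to be tested.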
